A study of Mus musculus with 15 samples.

Results

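Control oligodendrocytes (OLs) were compared with control oligodendrocyte precursor cells (OPCs) to describe how RNA levels differed between differentiating and dividing cells that kept Srf, the gene of serum response factor (SRF). The comparison uses 8 of the 15 libraries of the series: the 4 titled control OPC and the 4 titled control OL. Every culture, SRF-KO cultures included, was grown from mouse OPCs purified from brain by immunopanning (capture on antibody-coated dishes) and carried 2 floxed Srf alleles (SRF-floxed/floxed), which Cre recombinase can cut. The control OPCs were plated on day 3 of culture at 30k cells per well, received AAV-deleted CRE, an adeno-associated virus with an inactive Cre, in proliferation medium, and were frozen 48 hours later. The control OLs were plated on day 5 at 35k cells per well, received a GFP lentivirus (lentivirus-GFP control) on day 6, were moved to differentiation medium on day 7 and were frozen on day 3 of differentiation. The other 7 libraries are 3 SRF-KO OPC (AAV-CRE) and 4 SRF-KO OL (lentivirus-CRE-IRES-GFP), used below only beside the control values. The treatment label of the SRF-KO OLs also ends in the word control, and the design text of the series names mesenchymal stem cells and Olig2-Cre, which no sample label does; the groups here follow the titles. Differentiation, kind of virus, culture age, plating density, medium and the way the authors counted reads all change together between the 2 groups and cannot be told apart. The labels do not say whether the 4 libraries of a group came from separate animals, so every p-value below measures the spread between these libraries, which may be technical.

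OPCs divide in response to platelet-derived growth factor, which they sense through the receptor PDGFRA, and to fibroblast growth factors. When these factors are withdrawn and thyroid hormone is present, the cells leave the cell cycle, switch on the transcription factor MYRF and make the lipids and proteins of myelin, among them myelin basic protein (MBP). During this step the actin cytoskeleton, first needed for process outgrowth, is taken apart as myelin membrane spreads.

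Total expected counts were 8964310 to 16026511 in the control OPC libraries and 7188698 to 13139258 in the control OL libraries. On log2 CPM (expected counts per million-count library, after TMM scaling), the first principal component carried 93.4% of the variance and separated the stages. Differences are given as log2 fold changes of OL over OPC with a standard error (SE) taken from the test, and genes are called at a Benjamini-Hochberg adjusted p under 0.05 in edgeR's quasi-likelihood test on 15027 genes. Of these, 6390 were higher (42.5%) and 5580 lower (37.1%) in OLs, 79.7% in all, and the median change was 0.10. The counts for gene lists below are to be read beside these shares. List members with at most 3 counts over 1 group passed the filter on low counts through the other group alone. Their direction was fixed by that, and they add nothing to the list counts. Such members include St18, Bmp4, Kif19a, Cnn1, Ccn2 and Gjb6, low in OPCs, and Egr4, low in OLs. With so many genes called, a call alone sets no gene or list apart. The labels were checked against single markers. Pdgfra was at 485 to 513 CPM in the OPC libraries and 52.2 to 57.0 CPM in the OL libraries, and Cspg4 was also higher in OPCs. Of the myelin list, Mog, Mal, Aspa, Hapln2 and Klk6 had no count in the OPC libraries. Mog had 112 to 172 CPM in the OL libraries, while Aspa did not pass the filter on low counts. The full list of 28 OPC surface and secreted genes did not separate the groups. It summed to 7112 to 7258 CPM in the OPC libraries and 6951 to 8402 CPM in the OL libraries, with 14 members higher and 13 lower in OLs. The OL libraries held, besides myelin RNAs, much RNA of astrocyte marker genes, of which 16 of 17 rose (12 rose and 4 fell with libraries scaled to the length-matched genes defined below). The summed level of those 17 was 3939 to 4163 CPM in the OPC libraries and 32784 to 62175 CPM in the OL libraries. Gjb6 was at 0 in every OPC library and was tested only because of its OL counts. The 39 myelin genes summed to 1518 to 1575 CPM in the OPC libraries and 28186 to 49816 CPM in the OL libraries. In every control OL library the astrocyte sum was above the myelin sum. The part of astrocyte RNA in the results below was not tested. In bulk RNA, fewer cells of a type and less RNA per cell cannot be told apart.

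The files of the stages differ in what a gene is. For genes with introns, the length listed in the OL files is that of the whole gene span and in the OPC files that of the spliced transcripts. Genes whose listed length was not much greater in OL files were therefore taken first: 18487 of 45706 genes had a mean listed length in OL files at most 1.1 times that in OPC files, and for 17660 of them the longest annotated transcript has a single exon. The 18487 genes are called length-matched here, and 1857 of them passed the filter on low counts. The limit does not bound the OL length from below, and it does not show that the same reads were counted in both kinds of file.

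Among the 1857 length-matched genes, 1289 rose (69.4%) and 292 fell (15.7%), 85.1% called in all, with a median change of 3.16. When libraries were scaled to the length-matched genes themselves, 1019 rose and 630 fell, and with the median change of genes of like structure subtracted 761 rose and 805 fell. The excess of rises lay in pseudogenes, copies of genes that mostly arose by reverse transcription of spliced RNA and so have no introns. Of 958 length-matched pseudogenes, 917 rose (95.7%) and 13 fell (1.36%), 97.1% in all, with a median change of 5.93. Pseudogenes took 1.21% to 1.41% of all counts in the control OPC libraries and 7.57% to 9.11% in the control OL libraries. The SRF-KO libraries were split by stage in the same way, at 1.55% to 1.597% in OPCs and 8.30% to 10.8% in OLs. The 590 length-matched protein-coding genes showed no such shift: 223 rose (37.8%), 219 fell (37.1%), 148 were not called (74.9% called) and the median change was 0.03. Of the 309 length-matched genes that are neither, among them antisense and long intergenic RNAs, 149 rose and 60 fell, 67.6% in all. Stage and way of counting cannot be told apart in this rise. The scaling to length-matched genes, most of which are pseudogenes, moved the median change of all genes by -1.58. Under that scaling, all called list members that rose by up to 1.59 on the log2 scale, the value of mt-Nd1, changed sign. Some of them, such as Ncan, Jund and Wdr1, also changed sign with plain library totals. Others, such as Sox2 and mt-Co1, did so with the median change of genes of like structure subtracted. The directions of rises of that size below therefore depend on the scaling.

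Because many length-matched genes are copies of, or lie within, other genes, a narrower class was formed after the data had been seen. These stand-alone single-exon genes are protein-coding, have 1 exon, overlap no other listed gene and share at most 5% of their 31-base words with the rest. There were 704 of them, of which 119 passed the filter. Of these, 34 rose (28.6%), 44 fell (37.0%) and 41 were not called, with a median change of -0.14. With plain library totals 23 rose and 60 fell, with scaling to the length-matched genes 12 rose and 95 fell, and with the structure trend removed, whose correction for this class is set by the pseudogenes, 6 rose and 113 fell. Even in this class 65.5% of the genes were called.

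**Figure D1:**
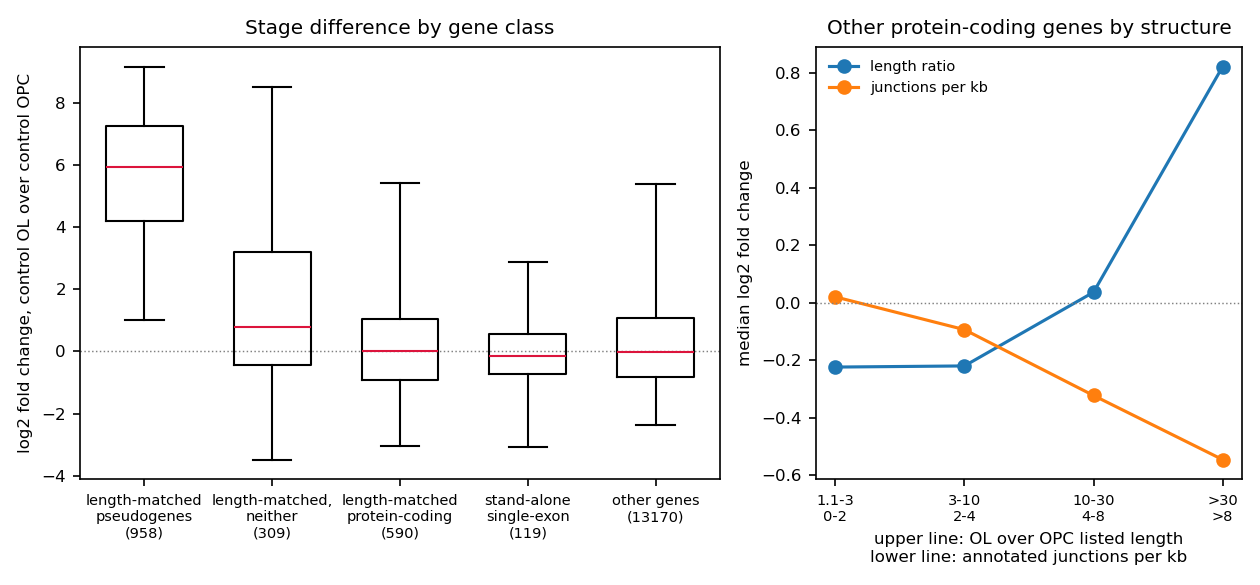
Left, log2 fold changes of control OL over control OPC by gene class, with the number of genes tested in parentheses; boxes span the quartiles, red lines are medians and whiskers run from the 5th to the 95th percentile. Right, median log2 fold change of the other protein-coding genes by listed length ratio (blue) and by annotated splice junctions per kb of spliced length (orange). Pseudogenes stand at a median of 5.93, length-matched protein-coding genes at 0.03 and stand-alone single-exon genes at -0.14.

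For stand-alone single-exon genes, span and spliced transcript are the same, and they are described first. Whether the difference in effective length between the 2 kinds of file reaches their counts was not tested. Sox11 encodes a transcription factor of immature neural cells and lies at chr12:27334264-27342574 (GENCODE M21 on GRCm38, as for all positions here). It had 485, 514, 568 and 539 CPM in the 4 control OPC libraries and 106, 151, 144 and 197 CPM in the 4 control OL libraries. Every OL library was below every OPC library, and Sox11 fell by 1.81 on the log2 scale (SE 0.15, adjusted p = 1.6e-07). Rprm (chr2:54084093-54085552) encodes Reprimo, a p53-induced inhibitor of entry into mitosis. Its level was 65.4, 67.2, 58.8 and 61.2 CPM in OPCs against 7.67, 8.58, 7.28 and 6.33 CPM in OLs, and fell by 3.08 (SE 0.11, adjusted p = 5.0e-11). Ier2 (chr8:84661331-84662852), an immediate-early gene that growth factors induce within minutes, went from 58.5, 55.3, 49.2 and 48.1 CPM to 16.5, 14.8, 17.1 and 14.7 CPM and fell by 1.75 (SE 0.11, adjusted p = 5.0e-09). For neither gene did the groups overlap, which held for 58.0% of the genes of this class and 74.4% of all genes tested. The share without overlap was 81.4% over the length-matched genes, 69.2% over the protein-coding ones, 95.5% over the pseudogenes, 60.8% over the rest of them and 73.4% over all other genes. Peg12, an imprinted gene expressed from the paternal copy, fell by 2.66 (SE 0.17) and Spin4, a reader of histone methylation, by 3.78 (SE 0.37). Sowahc showed the largest fall of the class (-9.21, SE 0.21), from 59.3 to 72.6 CPM in OPCs to 0.0745 to 0.162 CPM in OLs.

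Rises in the class included signalling and receptor genes. Rassf10 (chr7:112953962-112957457), which encodes a Ras-association domain protein, had 0.462, 0.168, 0.0971 and 0 CPM in OPCs and 47.3, 39.0, 41.7 and 42.8 CPM in OLs. It rose by 7.71 (SE 0.30, adjusted p = 7.1e-11). Adra2a (chr19:54044151-54048982), the alpha-2A adrenergic receptor, which lowers cyclic AMP, had 1.52, 0, 0.486 and 0.822 CPM in OPCs. In OLs it had 47.9, 37.0, 49.3 and 48.6 CPM, a rise of 6.02 (SE 0.39, adjusted p = 1.1e-08). Rhob (chr12:8497661-8500009), a small GTPase that acts on actin and endosomes, rose by 2.29 (SE 0.15, adjusted p = 9.7e-09), from 21.7 to 29.2 CPM in OPCs to 97.6 to 148 CPM in OLs. Dio3, the enzyme that inactivates thyroid hormone, had a count in 1 of 4 OPC libraries (0.299 CPM) and 7.82 to 11.02 CPM in OLs, a rise of 6.85 (SE 0.53, adjusted p = 6.6e-08). Hexim1, an inhibitor of transcription elongation by P-TEFb, rose by 0.92 (SE 0.17, adjusted p = 2.1e-04), and Ier5 by 0.65 (SE 0.13, adjusted p = 3.6e-04). Both of these smaller rises turned to falls under scaling to the length-matched genes and with the structure trend removed, Rhob turned with the structure trend removed (-2.01), and Ier5 also missed the threshold with library totals (adjusted p = 0.076).

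**Figure D2:**
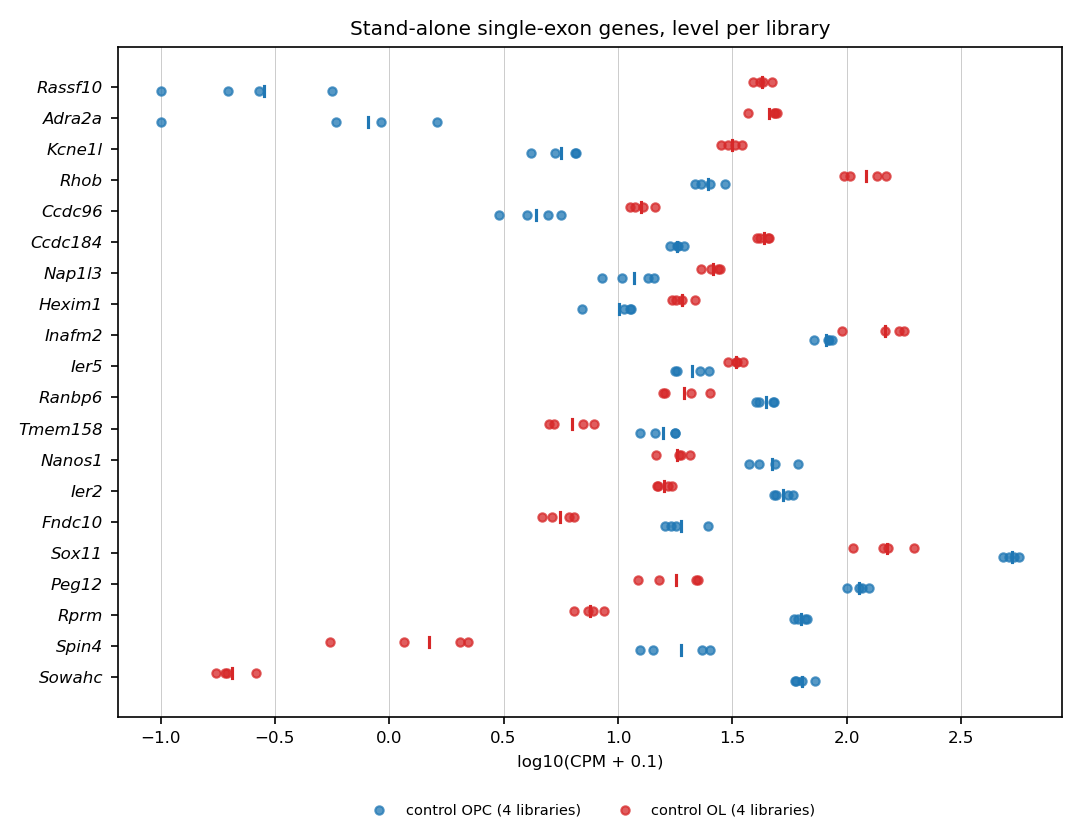
Level of the 10 largest rises and 10 largest falls among stand-alone single-exon genes of at least 3 in average log2 CPM, as log10(CPM + 0.1), in each of 4 control OPC libraries (blue) and 4 control OL libraries (red), with bars at the log10 of the group mean plus 0.1. The groups do not overlap for any of the 20, which were chosen on that condition; the rises from Ccdc96 down to Ier5 change sign when libraries are scaled to the length-matched genes, and all rises from Kcne1l down do so with the structure trend removed.

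Other length-matched genes with large changes were less certain. Kcna1 (chr6:126640397-126646384), the voltage-gated potassium channel Kv1.1, had 5.28, 11.3, 6.90 and 8.37 CPM in OPCs and 503, 511, 467 and 565 CPM in OLs, a rise of 5.99 (SE 0.20, adjusted p = 2.3e-11). Pou3f1 (chr4:124656807-124660655), a POU-domain factor also called Oct6 that promyelinating Schwann cells express, fell from 74.6, 51.4, 60.5 and 59.1 CPM to 4.99, 3.16, 4.85 and 3.95 CPM. Its change was -3.88 (SE 0.16, adjusted p = 1.7e-10). Neat1, a nuclear RNA that builds paraspeckles, rose by 7.83 (SE 0.36), from 0 to 1.78 CPM to 207 to 306 CPM. Its mean listed length was 7591 bases in OPC files and 3174 bases in OL files. Pold1, the catalytic subunit of DNA polymerase delta, fell by 4.25 (SE 0.11), and Impdh2, which makes guanine nucleotides, by 4.44 (SE 0.10). Their longest transcripts have 26 and 14 exons, so equal listed lengths do not show that the same reads were counted for them in both kinds of file. Aldoart1, Amd2 and Psme2b, which rose by 8.59, 5.22 and 5.08, are intronless copies of other genes. Histone genes moved in both directions: Hist1h2bg rose by 6.91 while Hist1h2ae fell by 3.79, and Hist1h2ao, with 5.05 to 34.5 CPM in OPCs, had no count in any OL library, at least 231-fold lower against 3 counts over the group. Reads of near-identical copies and of overlapping genes can be shared out differently in the 2 kinds of file, and the libraries do not mark strand. The values of these histones and copies, of Gemin4 (1 count in all OL libraries, a ratio of OPC over OL of 2080 with a 95% counting interval of 373 to 82183), of Rpl35 and Cpne1, and of Myo1h and Prss23os are therefore uncertain.

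Several members of the gene lists are length-matched and are given here with their levels. Some have introns, such as Actb and Aldoc, whose longest transcripts have 6 and 9 exons. For these the caution given for Pold1 and Impdh2 holds. Olig1 (chr16:91269772-91271933), a factor of the lineage from its start, had 3306, 3063, 3092 and 2993 CPM in OPCs and 2757, 2279, 1934 and 1473 CPM in OLs. It fell by 0.56 (SE 0.17, adjusted p = 0.0077), with no overlap. Sox2, a factor of neural stem and precursor cells, rose by 1.06 (SE 0.12, adjusted p = 3.2e-06), from 76.1 to 113 CPM to 167 to 203 CPM, and Sox4 by 0.87 (SE 0.11). Both SOX genes changed sign under scaling to the length-matched genes and with the structure trend removed. Of the 7 length-matched immediate-early genes 4 fell, Egr2 by 4.46, Ier3 by 2.73, Ier2 by 1.75 and Jun by 1.07, and 3 rose. The 3 were Junb, Ier5 and Jund, by 0.73, 0.65 and 0.34, and each changed sign under those 2 alternatives. Jund also changed sign with library totals. Actb (chr5:142903115-142906754), beta-actin, had 3731, 3576, 3223 and 3382 CPM in OPCs and 9925, 8935, 8263 and 5248 CPM in OLs. It rose by 1.22 (SE 0.18, adjusted p = 3.8e-05) but fell by 0.39 under scaling to the length-matched genes. P2ry1, an ADP receptor, rose by 2.14 (SE 0.13), and Rap2a, a Ras-like GTPase of the newly formed oligodendrocyte list, by 1.0095 (SE 0.16), which became -0.55 under that scaling. Aldoc, an aldolase that marks astrocytes, rose by 1.92 (SE 0.14). Fasn and Srebf1, the fatty acid synthase and its transcriptional activator, were not called, with 297 to 333 and 171 to 187 CPM in OPCs and 232 to 346 and 159 to 205 CPM in OLs.

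All 13 protein genes of the mitochondrial genome, which have no introns, are length-matched. Of these, 10 rose, mt-Co3 fell by 0.66 (SE 0.26, adjusted p = 0.032), and mt-Atp6 and mt-Co2 were not called. mt-Nd4, a complex I subunit, had 870, 983, 967 and 1078 CPM in OPCs and 5304, 5692, 5488 and 4361 CPM in OLs, a rise of 2.42 (SE 0.13, adjusted p = 2.2e-09). mt-Nd6, the one protein gene on the other strand, rose by 3.57 (SE 0.17). The 13 genes together took 2.54% to 2.86% of the counts in control OPCs and 4.98% to 5.65% in control OLs. None of the 13 was called lower with DESeq2 (11 higher). Under scaling to the length-matched genes 6 rose and 3 fell, and all 13 fell with the structure trend removed.

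The remaining genes have introns or several isoforms, and their counts rest on different definitions in the 2 kinds of file. Of 13170 such genes tested, 5101 rose (38.7%) and 5288 fell (40.2%), 78.9% called in all, with a median of -0.03. With library totals 3910 rose and 6477 fell, and with scaling to the length-matched genes 1905 rose and 9846 fell. Gene structure moved with the result. Among protein-coding genes the median change was -0.22 where the OL length was 1.1 to 3 times the OPC length and 0.82 where it was more than 30 times. It was 0.02 for genes with at most 2 annotated junctions per kb of spliced length and -0.54 above 8. The largest rises of the class were Il31ra, Myo3a, Mobp, Trim30a and Mog, and the largest falls Lpin2, Pcdhga11, Pcdhga3, Srp54a and Rps27. Il31ra, Myo3a and Trim30a had no count in any control OPC library and 803 to 1745, 981 to 1292 and 72.5 to 227 CPM in the control OLs. Lpin2, Pcdhga11 and Pcdhga3 had no count in any control OL library, and the Pcdhga genes overlap each other.

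Myelin genes rose in nearly all tested cases. Of 37 tested members of 39, 35 rose and 1 fell, with a median of 3.44. With scaling to the length-matched genes 27 rose and 5 fell. Members with no count in OPCs, such as Mog, Mal, Hapln2 and Klk6, were tested only because of their OL counts and add nothing to this count. Mbp, which compacts the cytoplasmic faces of the myelin membrane, had 9.97, 12.2, 13.3 and 12.8 CPM in OPCs and 13425, 10171, 9398 and 6836 CPM in OLs. Its change was 9.69 (SE 0.27, adjusted p = 7.0e-12). Mog (chr17:37010743-37023398), a protein of the outer myelin surface that appears late, had no count in OPCs and 172, 145, 112 and 115 CPM in OLs, at least 2585-fold higher against 3 counts over the OPC group. Replicate 1 of the control OLs was highest for both, and no OL library overlapped an OPC library. Mobp, another myelin-compacting protein, had 1 count in all OPC libraries and a ratio of 41446, with a 95% counting interval from 7438 upwards. Cldn11, the tight junction protein of myelin, rose by 6.71 (SE 0.22), Mag by 11.40 (SE 0.30) and Cnp, already present in OPCs at 330 to 358 CPM, by 3.42 (SE 0.20). The exception was Anln, a scaffold of the contractile ring in dividing cells as well as of septins in myelin, which fell by 3.00 (SE 0.09).

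**Figure D3:**
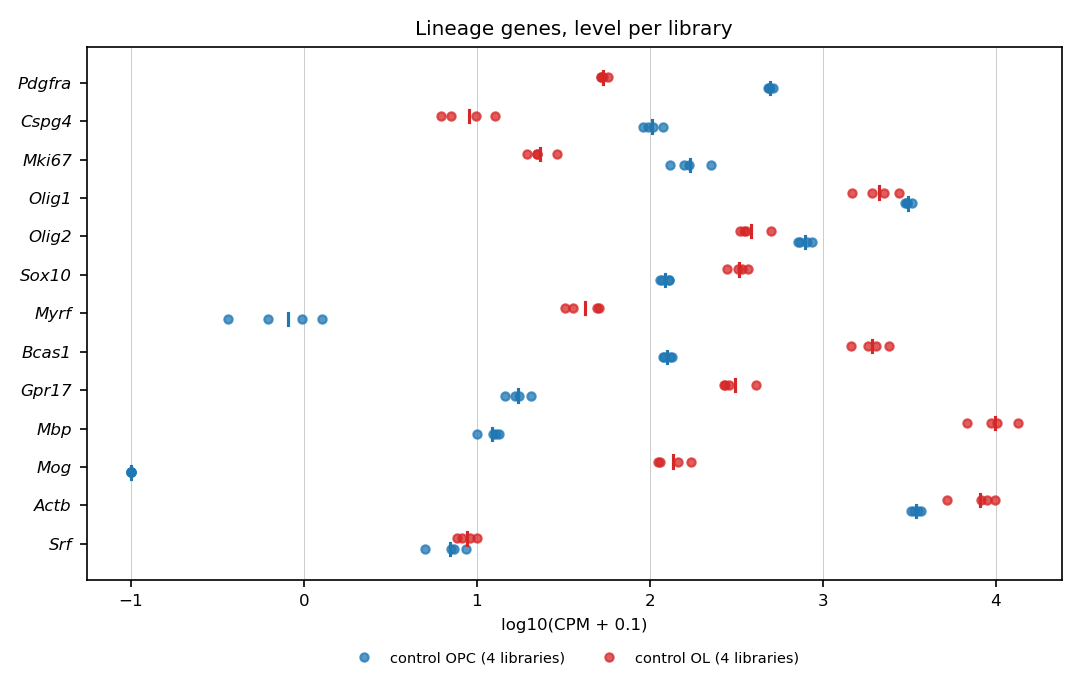
Level of 13 genes of the lineage as log10(CPM + 0.1) in each control OPC (blue) and control OL (red) library, with bars at the log10 of the group mean plus 0.1. Pdgfra, Cspg4, Mki67, Olig1 and Olig2 lie lower in every OL library, the others except Srf higher; the rises of Sox10 and Actb change sign when libraries are scaled to the length-matched genes.

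Genes of newly formed oligodendrocytes rose with the myelin genes, 22 of 23 tested (16 rose and 5 fell with scaling to the length-matched genes), with a median of 2.53; Cemip2 (Tmem2 in the list) fell by 0.56. Bcas1, a marker of early myelinating cells, had 132, 134, 118 and 121 CPM in OPCs and 2429, 2044, 1825 and 1455 CPM in OLs, a rise of 3.94 (SE 0.16, adjusted p = 1.0e-10). Gpr17, a receptor that is transient in committed precursors and holds back maturation, rose by 4.16 (SE 0.17), from 14.4 to 20.6 CPM to 269.8 to 411 CPM. Enpp6, a choline phosphodiesterase of the same stage, rose by 11.70 (SE 0.28), from at most 0.264 CPM to 297 to 351 CPM. Bmp4, a ligand that in other settings blocks oligodendrocyte differentiation, had 1 count over the OPC libraries and 24.4 to 34.8 CPM in OLs.

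OPC surface and secreted genes did not fall as a group: 13 fell, 14 rose and 1 was not called, with a median of 0.25, and with scaling to the length-matched genes 24 fell and 4 rose. Pdgfra (chr5:75152292-75198215) had 493, 485, 513 and 491 CPM in OPCs and 52.2, 53.7, 52.2 and 57.0 CPM in OLs. It fell by 3.20 (SE 0.09, adjusted p = 6.0e-12). Cspg4, the NG2 proteoglycan of the OPC surface, fell by 3.51 (SE 0.18, adjusted p = 1.0e-09), from 91.3 to 119 CPM to 6.15 to 12.7 CPM. The Notch ligands Dll3 and Dll1 fell by 3.18 and 2.65. Proteoglycan genes of the list moved in both directions. Besides Cspg4, Cspg5 fell by 1.58 (SE 0.08) and Ptprz1, a receptor phosphatase, by 1.24 (SE 0.11), while Bcan, brevican, rose by 2.29 (SE 0.20). The 3 largest rises of the list were those of Tnr, tenascin-R, by 4.03 (SE 0.16), C1ql1, a secreted C1q-like protein, by 3.66, and Matn4, a matrilin, by 3.64 (SE 0.23).

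Transcription factors of the lineage divided into 13 that rose, 9 that fell and 7 that were not called; with library totals 10 rose and 15 fell, and with scaling to the length-matched genes 4 rose and 23 fell. Myrf (chr19:10208272-10240748), the activator of the myelin program, had 0.264, 1.18, 0.874 and 0.523 CPM in OPCs and 50.6, 32.3, 49.2 and 36.1 CPM in OLs, a rise of 5.84 (SE 0.29, adjusted p = 7.3e-10). Nkx6-2, a homeobox gene of maturing oligodendrocytes, rose by 6.19 (SE 0.16), and St18, a zinc finger gene, from no count to 20.05 to 26.7 CPM, at least 455-fold. Sox10, the factor that holds the lineage identity, rose by 1.43 (SE 0.10, adjusted p = 2.5e-08), from 115 to 129 CPM to 281 to 370 CPM, a direction that turned with scaling to the length-matched genes (-0.16). Olig2 fell by 1.02 (SE 0.14, adjusted p = 1.2e-05), from 723 to 871 CPM to 332 to 505 CPM. Inhibitors of differentiation were not lower as a group, since 7 of 12 rose and 5 fell (5 and 7 with scaling to the length-matched genes). Id3 and Id4, which sequester bHLH factors such as OLIG2, rose by 4.24 (SE 0.15) and 4.10 (SE 0.25), and Hey1, a Notch target, by 2.72 (SE 0.10). Hes5 and Hes6 fell by 1.13 (SE 0.13) and 1.11 (SE 0.11). Id3, Id4 and Hey1 are also expressed by astrocytes, whose marker genes rose in the same libraries as given above.

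Cell cycle genes fell without exception among those tested, under all scalings tried: 23 of 23 S phase genes (median -3.88) and 25 of 25 mitosis genes (median -3.83). Mcm5, part of the replicative helicase, had 288, 269, 288 and 274 CPM in OPCs and 14.9, 16.4, 16.5 and 14.4 CPM in OLs, and fell by 4.17 (SE 0.09, adjusted p = 2.5e-12). Cdc20, the activator of the anaphase-promoting complex, had 295, 291, 288 and 253 CPM in OPCs and 10.4, 11.9, 11.2 and 11.2 CPM in OLs, and fell by 4.65 (SE 0.10, adjusted p = 2.5e-12). Mki67 fell by 2.87 (SE 0.17), and its OL level was still 19.4 to 29.1 CPM. In the list of CDK inhibitors and RB family genes, 2 of 9 tested members rose, Cdkn2b and Rb1, and 5 fell, or 0 and 9 with scaling to the length-matched genes. The falls were Rbl1 and Rbl2 of the RB family and the inhibitors Cdkn1a, Cdkn2c and Cdkn2d. Cdkn1a, which encodes p21, fell by 2.32 (SE 0.14), from 273 to 368 CPM to 53.2 to 78.7 CPM. Of 23 p53 targets 19 fell, where 37.1% of all genes tested fell. Among them were Eda2r by 4.02 (SE 0.11), Plk2 by 3.82 (SE 0.11) and Gdf15 by 4.51 (SE 0.44), while Fas rose by 2.64 (SE 0.16).

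Genes that report growth factor signalling fell in 14 of 20 cases and rose in 3, with a median of -1.46, where 37.1% of all genes tested fell. Spry4, a feedback inhibitor of receptor tyrosine kinases, had 218, 218, 225 and 223 CPM in OPCs and 7.48, 10.3, 6.63 and 9.38 CPM in OLs, and fell by 4.68 (SE 0.13, adjusted p = 5.8e-12). Ccnd1, cyclin D1, fell by 3.78 (SE 0.11), from 1770 to 1969 CPM to 129 to 150.2 CPM, and the ETS factor Etv5 by 3.01 (SE 0.08). Fgfr2, a receptor of maturing oligodendrocytes, rose by 5.26 (SE 0.23), from 23.0 to 29.7 CPM to 656 to 1400 CPM; its listed length ratio places it among the genes with introns, so its size is uncertain.

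Immediate-early genes, which growth factors also induce, fell in 14 of 26 tested cases and rose in 9, and with scaling to the length-matched genes 23 fell and 2 rose. Egr1 had 250, 242, 230 and 225 CPM in OPCs and 12.3, 17.4, 16.01 and 15.9 CPM in OLs, and fell by 3.94 (SE 0.12, adjusted p = 8.5e-12). Egr2, length-matched, fell by 4.46 (SE 0.29), from 9.24 to 15.8 CPM to 0.323 to 0.813 CPM. Fos rose by 0.66 (SE 0.09), which scaling to the length-matched genes turned.

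SRF binds the CArG box, a motif of CC, 6 bases of A or T, and GG, in genes of both the actin (MRTF) and the immediate-early arm. Srf itself (chr17:46548329-46556175) was not called: it had 7.00, 4.94, 8.55 and 7.24 CPM in OPCs and 8.15, 9.03, 9.87 and 7.596 CPM in OLs, and the groups overlapped (change 0.32, SE 0.19, adjusted p = 0.14). Its direction depended on the scaling. With scaling to the length-matched genes Srf was called lower (-1.25, adjusted p = 1.9e-05), and with the structure trend removed it was called higher (0.58, adjusted p = 0.015). Of 28 tested SRF-MRTF targets 18 rose, 7 fell and 3 were not called, with a median of 0.69, and with scaling to the length-matched genes 9 rose and 16 fell. Cnn1 and Ccn2, with 1 and 2 counts over the OPC libraries, were tested only because of their OL counts and add nothing to the rises. In the main fit 42.5% of all genes tested rose and 37.1% fell. Acta2, smooth muscle actin, rose by 6.31 (SE 0.26), from 0.264 to 0.971 CPM to 34.0 to 49.9 CPM. Myl9, a myosin light chain, rose by 4.45 (SE 0.23), from 1.65 to 4.27 CPM to 48.6 to 72.8 CPM, and Cnn2, a calponin, by 2.21 (SE 0.15), from 7.19 to 11.4 CPM to 35.4 to 48.1 CPM. Actg1, gamma-actin, rose by 0.67 (SE 0.17, adjusted p = 0.0022), a direction that turned with scaling to the length-matched genes. Falls included Tagln2 by 2.18 (SE 0.11) and the tropomyosin gene Tpm1 by 1.68 (SE 0.10). Filip1l had 826, 1596 and 1734 CPM in 3 OL libraries and 0 in control OL replicate 4, so its groups overlapped.

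The promoters of 5 of these genes are shown because they carry a CArG box and belong to genes of both arms, of which Actg1, Cnn2 and Myl9 rose, Egr2 fell and Srf was not called (Actg1 changed sign with scaling to the length-matched genes). Each is the 250 bases before an annotated start in RefSeq (GRCm38.p6), 5′ to 3′ on the gene's strand, with exact CArG boxes on that strand in capitals; the motif is its own reverse complement in form, so the search covers both strands. Among all 32851 promoter windows of 250 bases before to 50 after a start, 535 (1.63%) hold such a box; among the windows of the SRF-MRTF list 10 of 28 (35.7%), of the immediate-early list 6 of 30 (20%), of the myelin list 1 of 40 (2.50%) and of the mitosis list 0 of 21. Srf has 2 boxes, beginning 82 and 62 bases before the start, and the others 1 each. A match is a description of these letters, not a binding site. Windows are counted by annotated start, so 1 gene can count more than once. All immediate-early windows with a box belong to Dusp5, Egr2 and Zfp36. The windows of Srf (chr17:46556163-46556412, minus strand), Actg1 (chr11:120348496-120348745, minus strand), Cnn2 (chr10:79988350-79988599, plus strand), Myl9 (chr2:156775214-156775463, plus strand) and Egr2 (chr10:67537316-67537565, plus strand) read:
Srf: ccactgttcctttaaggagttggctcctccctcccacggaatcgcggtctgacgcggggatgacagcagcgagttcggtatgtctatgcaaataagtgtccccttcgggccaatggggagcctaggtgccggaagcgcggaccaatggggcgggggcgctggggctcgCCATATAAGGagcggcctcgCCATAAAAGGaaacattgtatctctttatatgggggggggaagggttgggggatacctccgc
Actg1: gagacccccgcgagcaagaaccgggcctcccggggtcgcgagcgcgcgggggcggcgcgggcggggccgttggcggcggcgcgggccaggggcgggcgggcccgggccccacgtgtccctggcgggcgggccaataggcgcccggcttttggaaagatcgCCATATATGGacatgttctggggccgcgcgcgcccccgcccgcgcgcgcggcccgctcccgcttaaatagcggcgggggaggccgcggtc
Cnn2: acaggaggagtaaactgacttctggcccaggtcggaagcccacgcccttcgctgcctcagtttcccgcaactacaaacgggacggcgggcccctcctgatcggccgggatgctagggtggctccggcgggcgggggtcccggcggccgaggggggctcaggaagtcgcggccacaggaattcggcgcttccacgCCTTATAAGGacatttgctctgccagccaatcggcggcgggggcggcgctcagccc
Myl9: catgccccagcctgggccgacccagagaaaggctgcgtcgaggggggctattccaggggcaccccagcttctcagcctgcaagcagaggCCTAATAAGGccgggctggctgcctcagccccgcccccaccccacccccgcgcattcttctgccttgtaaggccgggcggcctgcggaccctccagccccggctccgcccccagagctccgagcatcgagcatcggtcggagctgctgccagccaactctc
Egr2: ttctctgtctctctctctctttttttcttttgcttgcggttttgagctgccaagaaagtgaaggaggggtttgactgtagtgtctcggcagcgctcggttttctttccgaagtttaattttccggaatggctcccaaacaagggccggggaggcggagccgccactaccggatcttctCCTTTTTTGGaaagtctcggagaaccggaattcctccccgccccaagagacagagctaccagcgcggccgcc

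Structural and lipid genes were mixed. Of 32 genes of actin assembly 12 rose and 10 fell, with a median of 0.03 (9 and 17 with library totals, 1 and 28 with scaling to the length-matched genes); Ezr, which links actin to the membrane, rose by 3.93 (SE 0.15) and Capza1, which caps filaments, fell by 1.78 (SE 0.11). Of 27 tubulin and microtubule genes 15 rose and 10 fell (8 and 15 with scaling to the length-matched genes). Tubb4a, the tubulin mutated in a hypomyelinating leukodystrophy, had 100.6, 93.7, 90.2 and 90.2 CPM in OPCs and 4994, 3250, 2705 and 2249 CPM in OLs, a rise of 5.14 (SE 0.24, adjusted p = 3.9e-10). Tubb6 fell by 2.67 (SE 0.11). Cholesterol synthesis genes were lower in OLs in 20 of 24 cases and higher in 3, with a median of -0.70 (23 lower and 0 higher with scaling to the length-matched genes). Fdps, farnesyl diphosphate synthase, fell by 2.51 (SE 0.12), from 585 to 628 CPM to 84.6 to 119.8 CPM, while Hmgcs1 rose by 0.57 (SE 0.11), a direction that turned with scaling to the length-matched genes. Of 24 genes of fatty acid and sphingolipid synthesis 13 rose and 5 fell (9 and 10 with library totals, 3 and 21 with scaling to the length-matched genes). Those that make the galactolipids of myelin rose most: Fa2h, which hydroxylates their fatty acids, by 6.46 (SE 0.20), from 0.337 to 0.598 CPM to 34.96 to 47.7 CPM, and Gal3st1, which sulfates them, by 3.44 (SE 0.13).

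Receptor and hormone response genes rose more often than they fell in the main fit, where 42.5% of all genes tested rose and 37.1% fell. For the hormone and circadian genes this turned with scaling to the length-matched genes. Of 22 tested G protein-coupled receptors 16 rose and 5 fell (10 and 9 with scaling to the length-matched genes). S1pr3 and S1pr5, receptors of sphingosine 1-phosphate, rose by 7.46 (SE 0.21) and 7.16 (SE 0.35), and the muscarinic receptor Chrm1 fell by 4.43 (SE 0.28). Of 18 hormone and circadian genes 11 rose and 3 fell (6 and 8 with scaling to the length-matched genes). Klf9 and Hr, which thyroid hormone induces, rose by 2.73 (SE 0.12) and 5.11 (SE 0.21), beside Dio3 above, and Dbp, a clock output gene, rose by 3.86 (SE 0.13). Of 20 genes of the integrated stress response 15 fell, such as Mthfd2 by 3.09 (SE 0.10) and Asns by 2.16 (SE 0.09), and 4 rose, among them Ddit3 by 1.86 (SE 0.18); with scaling to the length-matched genes 17 fell and 0 rose. Of 16 tested interferon response genes 8 rose and 5 fell (4 and 10 with scaling to the length-matched genes), and among the falls H2-D1, a class I antigen-presenting molecule, fell by 1.87 (SE 0.09). All 7 tested nuclear-retained RNAs rose (4 with scaling to the length-matched genes), Malat1 by 2.45 (SE 0.17) and Meg3 by 6.29 (SE 0.24), although Kcnq1ot1 was not called under scaling to the length-matched genes (-0.40) and fell with the structure trend removed.

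**Figure D4:**
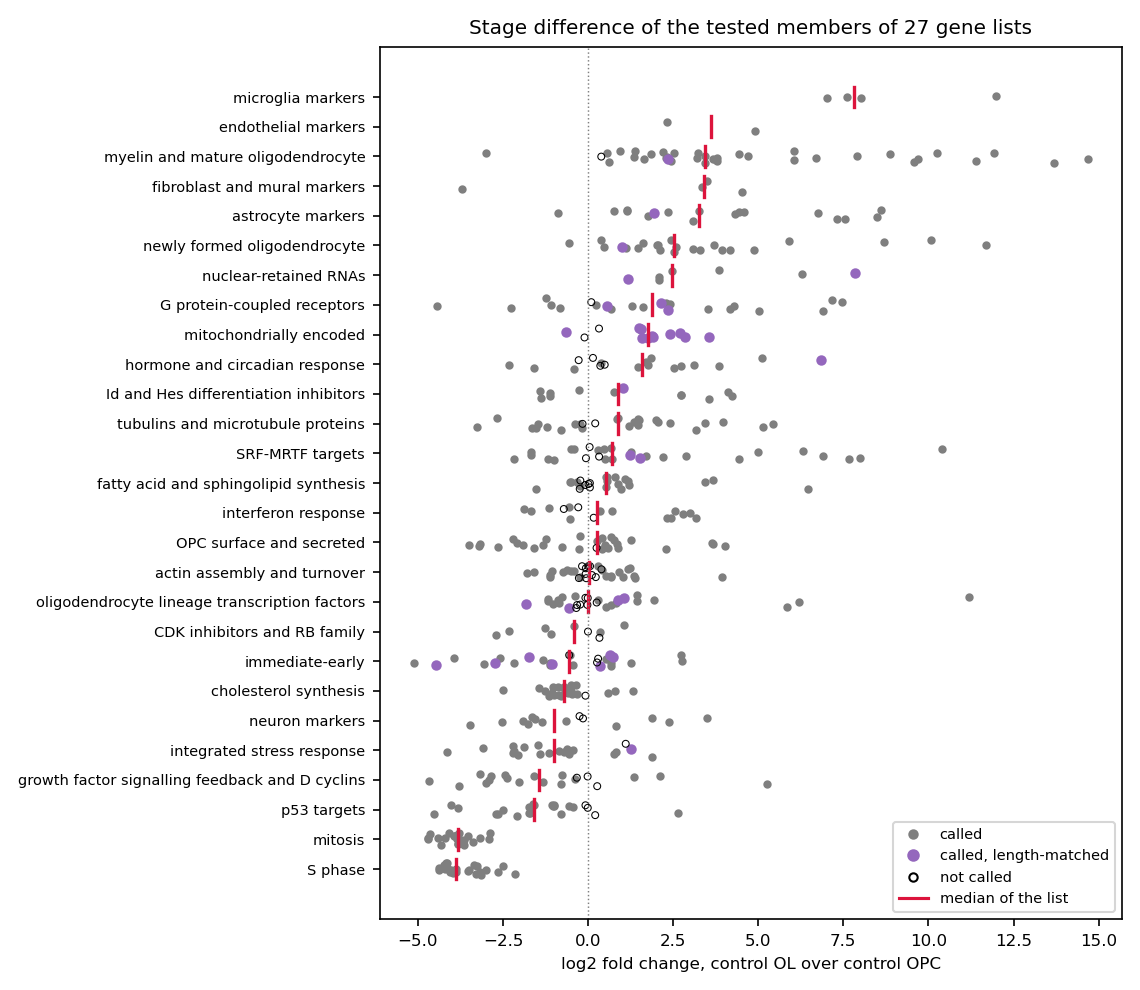
Log2 fold change of control OL over control OPC for the tested members of 27 gene lists, ordered by the median of each list (red bar); filled points are called at adjusted p under 0.05, purple ones are length-matched and open ones not called. S phase and mitosis lie wholly below 0 and the called members of the myelin list lie above it except for Anln; rises up to 1.59 change sign when libraries are scaled to the length-matched genes, and the mitochondrially encoded genes all fall with the structure trend removed.

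Markers of other cell types were measured in the same libraries. Gfap, the intermediate filament of astrocytes, had 58.0, 68.1, 38.9 and 34.7 CPM in OPCs and 29100, 17605, 18322 and 13064 CPM in OLs, a rise of 8.61 (SE 0.36, adjusted p = 1.5e-10). The water channel Aqp4 rose by 7.33 (SE 0.21), the reactive astrocyte gene Serpina3n by 8.48 (SE 0.21) and Apoe by 4.30 (SE 0.22), while Aldh1l1 fell by 0.89 (SE 0.11). Microglia markers summed to 0.168 to 0.373 CPM in OPCs and 47.3 to 69.9 CPM in OLs. Of the 15, 12 had no count in OPCs, and the 4 that were tested passed the filter on low counts through the OL libraries alone. Most of the OL sum was Lyz2 at 33.6 to 57.8 CPM, at least 785-fold higher. Neuron markers fell in 8 of 14 tested cases and rose in 4 (10 and 2 with scaling to the length-matched genes), with sums of 143 to 162 CPM in OPCs and 184 to 217 CPM in OLs, where Elavl3 alone had 120.1 to 155 CPM. Endothelial markers summed to 0.924 to 4.18 CPM in OPCs and 12.1 to 14.4 CPM in OLs, with Cldn5 at 0 in both groups, and fibroblast and mural markers to 89.3 to 94.8 and 48.5 to 65.0 CPM, mostly Fbln1 in OPCs (84.7 to 90.7 CPM) and Igfbp7 in OLs (33.6 to 48.4 CPM).

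The same stage difference was measured in the SRF-KO libraries, which share no library with the control comparison but share its kinds of vector, media and ways of counting; their viruses carried active Cre. There, 66.6% of 15102 genes were called, 80.7% of the length-matched genes and 50% of the stand-alone single-exon genes. Of the 442 length-matched protein-coding genes called in controls, 428 were tested, 421 (98.4%) changed in the same direction and 333 (77.8%) were also called. Of the 78 called stand-alone single-exon genes, 74 were tested, 71 (95.9%) had the same direction and 52 (70.3%) were called. The shares over all genes called in controls were 98.2% and 79.5%, and over the length-matched pseudogenes 99.7% and 98.4%. Those of the protein-coding and stand-alone genes thus lie near or below the shares over all genes. Sox11 changed by -1.90 in SRF-KO cultures, Rprm by -2.49, Rhob by 1.97, Mbp by 9.05 and Pdgfra by -2.72. Actb changed by 0.49 there and was not called (adjusted p = 0.075), but its difference from the control change was not called either (adjusted p = 0.44).

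**Figure D5:**
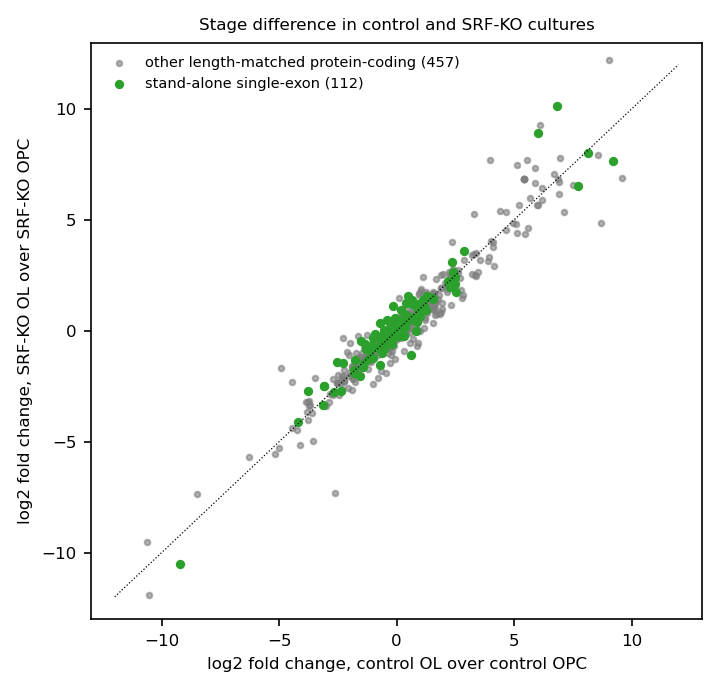
Log2 fold change of OL over OPC in control (horizontal) and SRF-KO (vertical) cultures for 457 length-matched protein-coding genes (grey) and 112 stand-alone single-exon genes (green); the dotted line marks equal changes. Points lie along it on both sides of 0; directions of rises up to 1.59 are those of TMM scaling over all genes.

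A direct test of the difference between the stage changes in SRF-KO and control cultures called 18 of 16135 genes (0.112%), with 1493 at an unadjusted p under 0.05. DESeq2 called 169. The count changed by more than 1.5 times without single libraries: it was 6 without control OPC replicate 2, 7 without control OPC replicate 4, 4 without SRF-KO OPC replicate 2, 6 without control OL replicate 1, 9 without control OL replicate 3, 42 without control OL replicate 4, 28 without SRF-KO OL replicate 1 and 134 without SRF-KO OL replicate 4. Srf, the deleted gene, was among the calls. It had 0.186 to 0.199 CPM in SRF-KO OPCs and 2.16 to 4.56 CPM in SRF-KO OLs, against 5.16 to 8.93 and 7.90 to 10.2 CPM in the controls of the same fit, so its change was 3.68 higher in SRF-KO (SE 0.46, adjusted p = 0.0047). Mmp2, a gelatinase of the extracellular matrix, changed by -3.17 in controls and by -1.13 in SRF-KO, a difference of 2.04 (SE 0.32, adjusted p = 0.013). Serpina3n rose less in SRF-KO, with a difference of -1.52 (SE 0.26, adjusted p = 0.020), and Tacc2, a centrosomal protein gene, changed by -5.45 in controls and -3.58 in SRF-KO, with a difference of 1.88 (SE 0.31, adjusted p = 0.020). Without SRF-KO OPC replicate 2 none of these last 3 was called (adjusted p = 0.080, 0.11 and 0.094). With the replicate block Serpina3n (adjusted p = 0.080) and Tacc2 (adjusted p = 0.061) were not called, nor was Serpina3n with scaling to the length-matched genes (adjusted p = 0.076). Tacc2 also lost its call without control OPC replicate 2 (adjusted p = 0.054), control OPC replicate 4 (0.055) or control OL replicate 1 (0.061). Further losses of Serpina3n are counted below.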

How the data were processed

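RNA was read by Smart-seq2 (full-length cDNA, poly(A), no strand mark) as single-end 63-base reads, per the labels' protocols. The effective lengths in the OPC and OL files differed, as given above. Per the submitters' processing notes, bcl2fastq, STAR and RSEM were used (versions not given in the sources used here), with builds GRCm38 and Rnor_6.0 named and no statement of which applies. The deposited expected counts, RSEM's estimate of reads per gene, were rounded to whole numbers. The deposited TPM values were not compared between stages. The deposited length column, in bases, was compared with GENCODE M21 transcripts on GRCm38: of 12274 single-transcript genes with introns, 73.7% had their spliced length in OPC files and none in OL files, and 73.9% had their span in OL files and none in OPC files.

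Groups follow the titles. edgeR 4.0.16 (R 4.3.3) with TMM scaling, filterByExpr and the two-sided quasi-likelihood test was run on the 8 control libraries, on the 7 SRF-KO libraries, and on all 15 for the difference of changes, with Benjamini-Hochberg adjustment over all genes tested. The SE was derived from the test, as the size of the log2 change over the root of its F statistic. CPM uses the TMM-scaled totals of the libraries in that fit, so CPM values of the control fit and of the 15-library fit differ slightly. A group with no count was set against 3 counts over the group; counting intervals are 95% and cover counting error only. On simulated counts of the control comparison (14710 genes) 100% of changes of 1 and of 2 on the log2 scale were recovered, with 7 false calls (3.38% of calls). Only a small set of genes above the median level was changed there, with signs drawn at random. The simulation therefore does not cover low counts, differences as widespread as in the data or the different ways of counting.

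Genes were named by rule: among genes called, with an average log2 CPM of at least 3 and groups that do not overlap, the 10 largest rises and falls of length-matched genes and the 5 largest of the others, unnamed gene models and pseudogenes skipped; from each list the best length-matched members and the best other member by p; and 14 fixed genes. Other list members given as examples, and the stand-alone single-exon genes, were chosen after their values were seen. The members and lists were chosen with earlier results of these data known. Alternatives were DESeq2 1.42.0, library totals, TMM from length-matched genes, no filter, a replicate block, other length limits, removal of the structure trend, a 2-fold minimum and leaving out each library; TMM from stand-alone single-exon genes was added after seeing the data. Some named genes are not reported here.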

Additional observations from a re-analysis of the deposited data

Results flagged for a closer look

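Among the named genes, 11 of 188 groups of 4 libraries had a library far from the other 3 (its gap to the nearest of them, over the whole range, passed the 95% limit of Dixon's test), and chance flags about 1 in 20 groups. In control OPCs these were Myo1h in replicate 2 (0.281 CPM, the others at 0), Mobp in replicate 2 (0.0562 CPM, the others at 0), Eda2r in replicate 3 (132 CPM against 114 to 117), Cdc20 in replicate 4 (253 CPM against 288 to 295) and Hexim1 in replicate 4 (6.87 CPM against 10.6 to 11.3). In control OLs they were Olig2 in replicate 1 (505 CPM against 332 to 360.0), Gpr17 in replicate 1 (411 CPM against 269.8 to 286), Adra2a in replicate 2 (37.0 CPM against 47.9 to 49.3), H2-D1 in replicate 2 (22.9 CPM against 19.4 to 19.7), Gemin4 in replicate 4 (0.0745 CPM, the others at 0) and Hist2h3b in replicate 4 (0.149 CPM, the others at 0). Where 3 libraries are at 0, any count in the last library is flagged. The flags of Myo1h, Mobp, Gemin4 and Hist2h3b were thus fixed in advance, and the rate of 1 in 20 does not apply to them.

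The change from OPC to OL differed between SRF-KO and control cultures, by the test of the difference itself, for 8 named genes. The difference on the log2 scale, SRF-KO minus control, was 3.68 for Srf, 2.05 for Gm13237, 2.04 for Mmp2 and 1.88 for Tacc2. It was -5.66 for Gm26899, which had no count in control OPCs, -2.68 for Rsph3b, -2.11 for Mphosph8 and -1.52 for Serpina3n. Without SRF-KO OPC replicate 2 the calls of Gm13237 (adjusted p = 0.081), Mmp2 (0.080), Tacc2 (0.094), Mphosph8 (0.098) and Serpina3n (0.11) were lost. Mphosph8 lost its call under 6 alternatives in all, with adjusted p from 0.051 to 0.098, and Serpina3n under 8, with adjusted p from 0.0502 to 0.11. Tacc2 lost its call with the replicate block and without several single libraries, with adjusted p from 0.054 to 0.094.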

How the results depend on the processing

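Counts of called length-matched genes stayed within 1.5 times the main 1581 except with no filter on low counts (2438). The other genes gave 10389 calls, and 6128 with at least a 2-fold change. Stand-alone single-exon genes gave 78 calls, 45 with at least a 2-fold change and 119 with the structure trend removed. Leaving out 1 library gave 1602 to 1667 length-matched, 10125 to 10472 other, 78 to 81 stand-alone and, in SRF-KO, 1309 to 1503 length-matched calls (1473 with all). The difference between SRF-KO and control was called for 18 genes, 169 by DESeq2, 88 with no filter, 47 with TMM from stand-alone single-exon genes, and 4 to 134 without 1 library.

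Deviations of same-numbered control libraries were weakly correlated (0.02, 0.09, -0.02 and 0.08), and 2 of the 4 OPC libraries did not correlate best with the OL library of their own number. With 4 libraries per stage this cannot show whether same-numbered libraries share a batch or an animal. With the replicate block, 1575 length-matched, 10298 other, 79 stand-alone and, in SRF-KO, 1487 length-matched genes were called, and 11 for the difference.

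Scaling to the length-matched genes reversed Rap2a (-0.55), Sox2 (-0.52), Cnn3 (-0.076), Actb (-0.39), Gpr85 (-1.02), Kcnq1ot1 (-0.40), Srf (-1.25), Sox10 (-0.16), Ccdc96 (-0.049), Ccdc184 (-0.33), Nap1l3 (-0.43), Hexim1 (-0.67), Inafm2 (-0.71) and Ier5 (-0.92). Removing the structure trend reversed Sox2 (-3.24), mt-Nd6 (-0.73), mt-Nd4 (-1.88), Kcnq1ot1 (-3.13), Kcne1l (-1.82), Rhob (-2.01), Ccdc96 (-2.75), Ccdc184 (-3.04), Nap1l3 (-3.14), Hexim1 (-3.37), Inafm2 (-3.43) and Ier5 (-3.64). Library totals reversed Srf (-0.026), which was not called with them or in the main fit. It was called under scaling to the length-matched genes, and in the other direction with the structure trend removed (0.58). Both large sets follow from those alternatives' construction, which sets the median of classes made up mostly of pseudogenes toward 0.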
